A study of Mus musculus with 10 samples.

Results

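The 10 genes described here encode 8 matrix metalloproteinases (MMPs), namely Mmp2, Mmp3, Mmp9, Mmp10, Mmp11, Mmp13, Mmp14 and Mmp19, and 2 tissue inhibitors of metalloproteinases (TIMPs), Timp1 and Timp2. They were taken from the count table by gene symbol, 10 of its 25229 rows. The cells were adipose stem and precursor cells (ASPCs) from WT mice, sorted from the stromovascular fraction of perigonadal white adipose tissue (gWAT) as CD45-CD31-Pdgfra+ cells and grown to confluence without passaging. At confluence, cells received 100 nM FICZ (6-formylindolo[3,2-b]carbazole, a ligand of the aryl hydrocarbon receptor, AHR) or DMSO, its vehicle. Lysates were taken 6 hr later for bulk RNA sequencing, with 5 libraries of each treatment. The labels do not say whether these libraries came from separate mice or cultures. The age and sex of the mice are not given for these libraries in the sources used here. The comparison asks which genes a ligand of AHR changes in these precursors, and here it is read for the enzymes that cut the extracellular matrix and their inhibitors.

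MMPs are zinc-dependent endopeptidases that are made as inactive proenzymes and cut collagens, gelatins, proteoglycans and many cell-surface proteins once the propeptide is removed. TIMPs bind the active site of mature MMPs and block it, and TIMP2 also links proMMP2 to MMP14 on the cell membrane, where proMMP2 is activated. In adipose tissue these enzymes remodel the collagen around growing adipocytes, and stromal precursors are among the cells that make them.

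The genes upstream of which a shared sequence feature can be read are those of the MMP cluster on chromosome 9, where Mmp3, Mmp10 and Mmp13 lie side by side with other MMP genes. RefSeq windows of the 250 bases before the gene start (build GRCm38.p6) matched 7 of the 10 genes. The letters searched, on both strands, were TGANTCA, the AP-1 site bound by FOS and JUN proteins, TATAAA, the TATA box, and GCGTG, the core of the AHR response element. TGANTCA reads the same on both strands, and no 2 matches overlapped in the windows printed here. The 120 bases before the start are shown for the cluster genes Mmp3 (chr9:7445702-7445821), Mmp10 (chr9:7502222-7502341) and Mmp13 (chr9:7272394-7272513), because they hold both of the first 2 features, and for their neighbour Mmp8 (chr9:7558309-7558428), which holds neither. The whole window of Timp1 (chrX:20869916-20870165) is shown because it holds GCGTG. All 5 are on the plus strand, and capitals mark the matches:
Mmp3: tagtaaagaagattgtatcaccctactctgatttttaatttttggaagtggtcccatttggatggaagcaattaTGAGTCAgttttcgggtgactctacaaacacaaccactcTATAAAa
Mmp10: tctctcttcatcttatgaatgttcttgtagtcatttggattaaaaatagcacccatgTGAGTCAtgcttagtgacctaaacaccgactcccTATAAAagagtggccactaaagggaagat
Mmp13: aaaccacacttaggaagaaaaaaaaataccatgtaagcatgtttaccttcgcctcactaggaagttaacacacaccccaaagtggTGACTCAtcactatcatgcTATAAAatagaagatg
Mmp8: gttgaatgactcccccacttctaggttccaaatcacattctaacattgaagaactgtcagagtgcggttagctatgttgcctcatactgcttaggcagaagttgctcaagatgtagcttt
Timp1: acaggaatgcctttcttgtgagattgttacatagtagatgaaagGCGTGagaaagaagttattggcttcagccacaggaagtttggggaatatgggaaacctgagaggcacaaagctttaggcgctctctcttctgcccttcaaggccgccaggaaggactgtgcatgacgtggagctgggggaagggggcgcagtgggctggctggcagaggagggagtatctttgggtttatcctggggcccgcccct
The AP-1 match began 46 bases before the start in Mmp3, 63 in Mmp10 and 35 in Mmp13, and the TATA box 7, 29 and 16 bases before it. Of the 7 genes with a window, 3 held TGANTCA, against 6.75% of the 32851 RefSeq windows of the same length, and 12.4% of all windows held a TATA box. The AHR core was found 206 bases before the start of Timp1 and 113 bases before that of Timp2, and 28.2% of all windows held it. The windows of Mmp3, Mmp10, Mmp11, Mmp13 and Mmp14 did not hold these 5 letters. A match is a run of letters and not a measured binding site.

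Each library gave between 38328611 and 50210111 counts, and 3 counts, taken as the lowest level that can be told from 0, corresponded to between 0.0603 and 0.0787 CPM (counts scaled to library size and TMM factors). Of the genes tested with edgeR's quasi-likelihood test, 14251 in all, Cyp1a1 had a log2 fold change of 3.25 (SE 0.38), Ahrr 1.66, Tiparp 0.91 and Cyp1b1 0.62. The lowest FICZ library stood above the highest DMSO library for each of these 4 AHR targets, as in 0.351% of the genes tested. At an adjusted p of 0.05 edgeR called 3 of these 4 and missed Cyp1b1 (adjusted p = 0.147). The 8 ASPC markers, among them Pdgfra, were counted in every library and summed to between 3315 and 4686 CPM in DMSO and between 3420 and 4154 CPM in FICZ. Hepatocyte transcripts were also counted throughout, between 1464 and 8365 CPM over 8 genes in DMSO, with DMSO_5 highest, and between 1587 and 2134 CPM in FICZ. Same-numbered libraries of both groups departed from their group averages in like ways (correlation across genes between 0.15 and 0.32 in the 5 pairs), although pair 3 was matched best by number 2 and pair 4 by number 5. Each result was therefore also read pair by pair, from a fit in which that number was a block. In edgeR this second fit called 2 of the 4 AHR targets, Cyp1a1 and Ahrr.

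The 10 genes differed widely in level (the plot of levels per length). On the scale of FPKM, which is CPM per kilobase of annotated exon, the median over the 10 libraries was 1693 for Timp1, 251 for Mmp2, 216 for Mmp14, 213 for Timp2, 152 for Mmp3, 69.5 for Mmp19, 21.3 for Mmp11 and 4.32 for Mmp10. Mmp13 and Mmp9 came last, with medians of 0.112 and 0.0760 FPKM. The ranges over libraries overlapped between Mmp2 and Mmp14, between Mmp14 and Timp2, and between Mmp13 and Mmp9, and the other neighbours in this order did not overlap. With the longest transcript as the length, Mmp14 stood above Mmp2 and the other 8 genes kept their place. Timp1 therefore stood above every MMP in every library, and Mmp2, Mmp14 and Mmp3 together were the bulk of the MMP transcripts, with median shares of 33.7%, 27.3% and 17.3% of the summed FPKM of 23 MMP genes. Of the MMP genes outside the 8, Mmp23 reached the level of Mmp11, with a median of 21.7 FPKM.

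**Figure D1:**
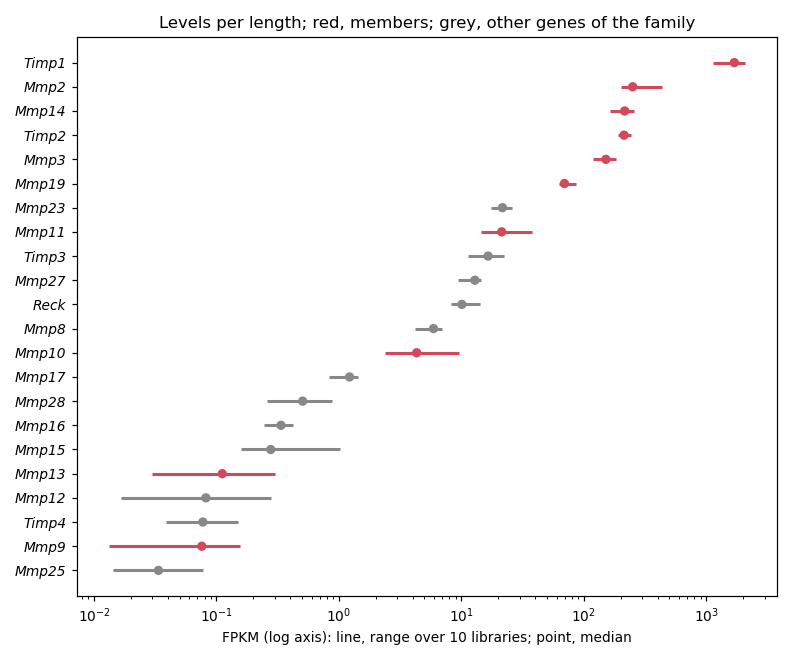
Level per length (FPKM, log axis) of the MMP genes, TIMPs and Reck that had a count in each library. Lines span the 10 libraries and points are medians. Timp1 is highest at 1693 FPKM and Mmp9 lowest of the 10 genes at 0.0760 FPKM.

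None of the 10 genes passed an adjusted p of 0.05 in edgeR's quasi-likelihood test without the block, where 3 of 14251 genes (0.0211%) did, and 0 of 10 had an unadjusted p under 0.05 (background 4.82%). With the replicate block 0 of 10 passed again (background 0.0561%), and 4 of 10 had an unadjusted p under 0.05, where 4.65% of all genes did. Those 4 were Mmp10, which was higher with FICZ (background 2.48%), and Mmp11, Mmp2 and Mmp9, which were lower (background 2.17%). With DESeq2, the tool named in the study's methods, 0 of 10 passed without the block (background 0.0845%) and 2 of 10 with it (background 0.14%), Mmp10 upward (background 0.135%) and Mmp11 downward (background 0.00539%). The groups overlapped in all 10 genes, against 0.351% of genes apart and higher and 0.119% apart and lower with FICZ. As RNA of whole cultures was measured, fewer cells of a type and less RNA per cell cannot be told apart in these values.

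**Figure D2:**
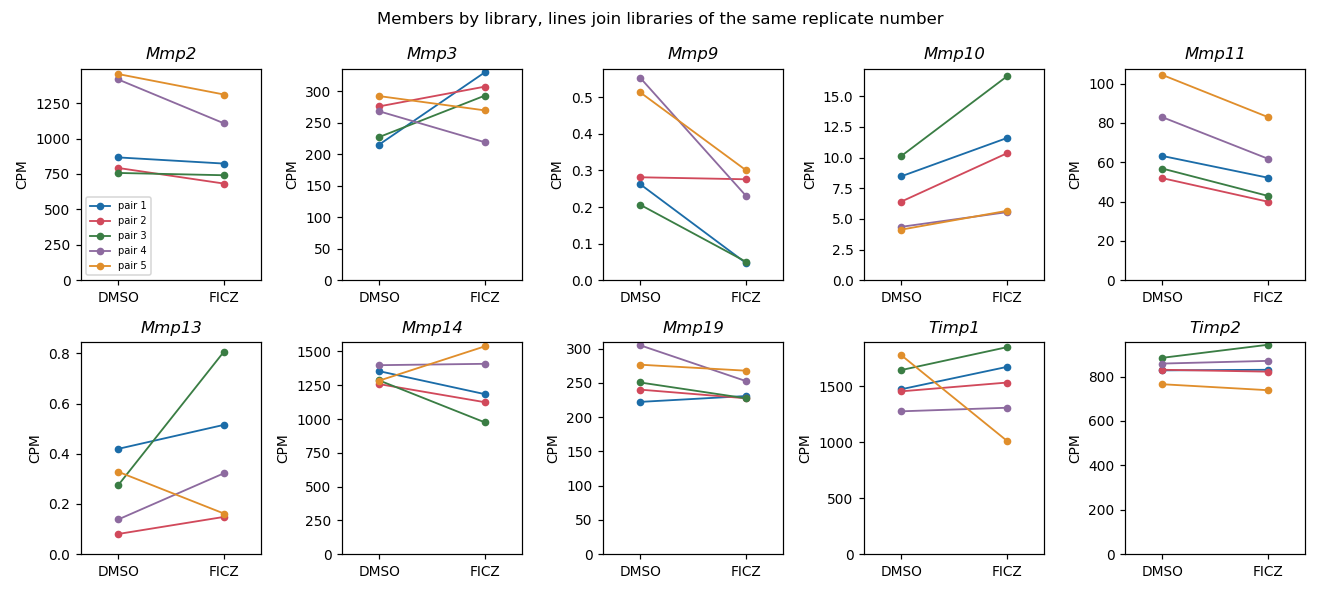
CPM of the 10 genes in each library on linear axes from 0, with DMSO on the left, FICZ on the right and a line joining libraries of the same replicate number. All 5 lines rise for Mmp10, and all 5 fall for Mmp2, Mmp9 and Mmp11.

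Of the 3 stromelysin genes, Mmp10 and Mmp11 passed the threshold in DESeq2 with the block and in no other fit on all libraries, and Mmp3 in none. Mmp10 encodes stromelysin 2, which cuts proteoglycans and glycoproteins of the matrix. It had 8.47, 6.41, 10.1, 4.35 and 4.12 CPM in DMSO_1 to DMSO_5 and 11.6, 10.3, 16.6, 5.55 and 5.66 CPM in FICZ_1 to FICZ_5. Replicates 4 and 5 were lowest in both groups, so that the groups overlapped, while each FICZ library stood above the DMSO library of its own number. The log2 difference within pairs was between 0.35 and 0.71. The log2 fold change was 0.57 (SE 0.34, adjusted p = 0.999 by edgeR) without the block and 0.54 (SE 0.09) with it, a fold of 1.45. Without the block, leaving out 1 library gave between 0.31 (without FICZ_3) and 0.77 (without DMSO_3). Its adjusted p with the block was 0.425 by edgeR and 0.0498 by DESeq2, just under the threshold. Being higher in all 5 pairs was seen in 4.32% of the genes tested. The exact permutation test over all arrangements of the libraries gave p = 0.214, and the exact test over sign changes of the 5 pairs gave 0.0625, the smallest it allows. The call by DESeq2 with the block was lost without pair 1 (adjusted p = 0.154), pair 2 (0.241) or pair 3 (0.154) and held without pair 4 (0.000699) or pair 5 (0.00706).

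Mmp11 encodes stromelysin 3, which is activated inside the cell by furin and is known from stromal fibroblasts. It had 63.2, 51.9, 56.8, 82.9 and 104 CPM in DMSO_1 to DMSO_5 and 52.1, 39.9, 42.9, 61.8 and 82.9 CPM in FICZ_1 to FICZ_5. Here replicates 4 and 5 were highest in both groups, the reverse of Mmp10, and each FICZ library stood below the DMSO library of its number. The difference within pairs was narrow, between -0.43 and -0.28 on the log2 scale. The log2 fold change was -0.36 (SE 0.23, adjusted p = 0.999 by edgeR) without the block and -0.36 (SE 0.06) with it, a fold of 0.777. Leaving out 1 library gave between -0.56 (without FICZ_5) and -0.19 (without DMSO_5) without the block. With the block its adjusted p was 0.265 by edgeR and 0.01 by DESeq2, and Mmp11 was the 1 gene of 18566 with an adjusted p that DESeq2 called lower with FICZ. The exact permutation test gave p = 0.206. The DESeq2 call was lost without pair 2 (adjusted p = 0.126) and held without each other pair (between 9.58e-06 and 0.0466). Being lower in all 5 pairs was seen in 2.81% of the genes tested, and in 3 of the 10 genes here.

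Mmp11 was highest in DMSO_5, where liver transcripts were highest too. Alb, the albumin gene, had 4780.5 CPM there, and its difference between FICZ and DMSO was -0.82, 0.37, 0.43, -1.35 and -2.34 on the log2 scale in pairs 1 to 5. In pairs 2 and 3, where Alb was higher with FICZ, Mmp11 differed by -0.38 and -0.41 and Mmp10 by 0.69 and 0.71. With log2 CPM of Alb as a covariate the log2 fold change of Mmp11 was -0.09 without the block and -0.38 (SE 0.07, adjusted p = 0.149 by edgeR) with it. That of Mmp10 was 0.45 without the block and 0.62 (SE 0.11, adjusted p = 0.0580 by edgeR) with it.

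**Figure D3:**
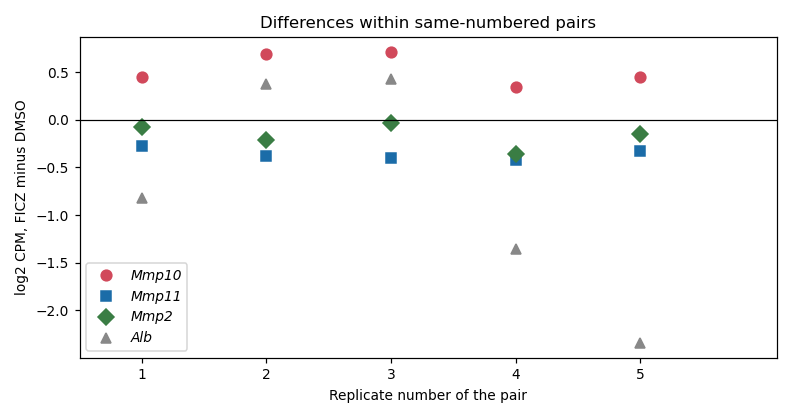
Difference in log2 CPM, FICZ minus DMSO, within each pair of libraries of the same replicate number, for Mmp10, Mmp11, Mmp2 and Alb. Mmp10 lies between 0.35 and 0.71 and Mmp11 between -0.43 and -0.28 in all 5 pairs, while Alb is above 0 in pairs 2 and 3 and as low as -2.34 in pair 5.

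Reads on Mmp11 and Mmp10 could be shared in part with other genes. Mmp11 lies on chromosome 10 (75923222 to 75936496 of GRCm38, minus strand), where 155 of its exonic bases are overlapped by Chchd10 on the other strand, and strandedness of the counts is not given in the sources used here. Chchd10, a mitochondrial protein gene, was also lower with FICZ in all 5 pairs (background 2.81%), with a log2 fold change of -0.74 (SE 0.26). The part of the shared bases in the change of Mmp11 was not tested. Chchd10 had between 9.84 and 31.1 CPM, below Mmp11 in each library. Of the 50-base words of their transcripts, 8.37% for Mmp10 and 8.39% for Mmp3 also occur in other genes. Each of them shares most with the other, and Mmp3 was more abundant than Mmp10 in every library. How many reads were placed on the wrong one of them was not tested.

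Mmp3, stromelysin 1, acts on proteoglycans and also activates other proMMPs. It had 216, 276, 227, 268 and 292 CPM in DMSO_1 to DMSO_5 and 330.4, 307, 293, 219 and 269.7 CPM in FICZ_1 to FICZ_5. Mmp3 was higher with FICZ in pairs 1, 2 and 3 and lower in pairs 4 and 5, and the groups overlapped. Its log2 fold change was 0.15 (SE 0.12), with an approximate 95% interval from -0.10 to 0.40. The pair with the largest difference, pair 1, had 0.62, and without it the fold change with the block was 0.02 by edgeR.

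The gelatinases cut denatured collagen and basement membrane collagen. Mmp2, gelatinase A, is made constitutively by many stromal cells. It had 867, 792, 757, 1416 and 1455 CPM in DMSO_1 to DMSO_5 and 823, 682, 741, 1107 and 1310.3 CPM in FICZ_1 to FICZ_5. Replicates 4 and 5 were highest in both groups, and every pair was lower with FICZ, by between -0.36 and -0.03 on the log2 scale. The log2 fold change was -0.18 (SE 0.24) without the block and -0.17 (SE 0.07, unadjusted p = 0.0479, adjusted p = 0.929 by edgeR) with it. With Alb as a covariate it was 0.08 without the block and -0.14 (SE 0.08) with it, so the sign of this small difference depended on the fit.

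Mmp9, gelatinase B, is best known from neutrophils and macrophages and was close to the limit of detection. It had 10, 14, 9, 24 and 25 counts in DMSO_1 to DMSO_5 and 2, 13, 2, 10 and 13 counts in FICZ_1 to FICZ_5. FICZ_1 and FICZ_3 were below the floor of 3 counts, and pair 2 differed by 1 count. Its log2 fold change was -0.98 (SE 0.51) without the block and -1.06 (SE 0.39, unadjusted p = 0.0306, adjusted p = 0.929 by edgeR) with it, and the exact permutation test gave p = 0.119. With Alb as a covariate the log2 fold change was -0.70 without the block and -0.94 (SE 0.54, unadjusted p = 0.108, adjusted p = 0.808 by edgeR) with it. Of 8 neutrophil markers 2 were at or above the floor in every library, and their sum was between 0.321 and 0.829 CPM in DMSO and between 0.393 and 0.706 CPM in FICZ. Of 8 macrophage markers 8 were above the floor in every library, with sums between 24.2 and 51.4 CPM in DMSO and between 23.5 and 36.3 CPM in FICZ, highest in DMSO_5, and their part in the values of Mmp9 was not tested.

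Mmp13, collagenase 3, cuts fibrillar collagen and was also rare. It had 16, 4, 12, 6 and 16 counts in DMSO_1 to DMSO_5 and 22, 7, 32, 14 and 7 counts in FICZ_1 to FICZ_5. FICZ_3 was highest, pair 5 was lower with FICZ and the other 4 pairs higher, and the groups overlapped. Its log2 fold change was 0.65 (SE 0.55), with an approximate 95% interval from -0.44 to 1.75.

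Mmp14 encodes the membrane-type MMP that cuts fibrillar collagen at the cell surface and activates proMMP2. It had 1354, 1258, 1286, 1399 and 1284 CPM in DMSO_1 to DMSO_5 and 1184, 1124, 975, 1409 and 1538 CPM in FICZ_1 to FICZ_5. The DMSO libraries lay close together and the FICZ libraries on both sides of them, lower in pairs 1, 2 and 3 and higher in pairs 4 and 5. Mmp14 had a log2 fold change of -0.08 (SE 0.12), with an approximate 95% interval from -0.32 to 0.16. It was between -0.18 (without FICZ_5) and -0.0021 (without FICZ_3) on leaving out 1 library, and -0.24 (unadjusted p = 0.0138, adjusted p = 0.638 by edgeR) with the block and Alb as a covariate. Mmp19, which cuts basement membrane proteins, had between 222 and 305 CPM in DMSO and between 228 and 268 CPM in FICZ, and was lower in 4 of 5 pairs, with a log2 fold change of -0.10 (SE 0.10). Of its 50-base words 24.7% also occur in transcripts of other genes, and Tmem198b shares the most. Tmem198b overlaps 789 exonic bases of Mmp19 on the other strand, so part of the reads of Mmp19 may belong there.

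Timp1 encodes a secreted inhibitor of most MMPs. It had 1473, 1455, 1645, 1276 and 1778 CPM in DMSO_1 to DMSO_5 and 1674, 1533, 1849.5, 1308 and 1012 CPM in FICZ_1 to FICZ_5. It was higher with FICZ in 4 of 5 pairs, by between 0.04 and 0.18 on the log2 scale, and lower in pair 5, by -0.81, where DMSO_5 was the highest of its group and FICZ_5 the lowest of all 10. The log2 fold change was -0.05 (SE 0.15) over all libraries, and 0.11 by edgeR with the block without pair 5 (unadjusted p = 0.0764), so that pair decided the sign. Timp1 lies within the span of Syn1 on the X chromosome (20870166 to 20874735 of GRCm38) and overlaps none of its exonic bases. Timp2, the inhibitor that takes part in the activation of proMMP2, had between 766 and 885 CPM in DMSO and between 739 and 944 CPM in FICZ. Timp2 had the fitted log2 difference of 0.01 (SE 0.08), with an approximate 95% interval from -0.15 to 0.18, without the block.

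Mmp2, Mmp11 and Mmp10 shared a difference between replicate numbers that was present in both groups. In replicates 4 and 5 of both groups Mmp2 and Mmp11 were higher, and Mmp10 lower, than in replicates 1 to 3 of the same group. For Mmp10 the DMSO libraries alone ran from 4.12 to 10.1 CPM, a wider span on the log2 scale than the largest difference within a pair, 0.71, and the standard error was 0.34 without the block and 0.09 with it.

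Of 15 further MMP genes 8 were tested, and 7 had too few counts, among them Mmp20 with no count in any library. None of the 8 passed the adjusted threshold in edgeR without or with the block or in DESeq2 without or with it, and 2 of 8 had an unadjusted p under 0.05 in each edgeR fit (background 4.82% without the block and 4.65% with it), Mmp8 and Mmp27. Mmp8, collagenase 2, had 11.6, 11.7, 10.2, 10.2 and 14.5 CPM in DMSO_1 to DMSO_5 and 15.2, 16.4, 15.2, 16.9 and 14.3 CPM in FICZ_1 to FICZ_5. Its groups were apart but for DMSO_5, which stood above FICZ_5. Mmp8 had a log2 fold change of 0.42 (SE 0.11, unadjusted p = 0.00256, adjusted p = 0.999 by edgeR), and the exact permutation test gave p = 0.0159. On all libraries DESeq2 with the block gave Mmp8 a log2 fold change of 0.43 (adjusted p = 0.472). Without pair 5, its 1 pair lower with FICZ, that fit called Mmp8 (log2 fold change 0.54, adjusted p = 0.000929). It then called 76 genes in all, against 26 on all libraries. Mmp27 averaged 24.7 ± 3.69 CPM with DMSO and 30.1 ± 3.24 CPM with FICZ (SD, n = 5 libraries each), a log2 fold change of 0.28 (SE 0.12). It was higher in 5 of 5 pairs, as were 4.32% of the genes tested. Mmp12, the macrophage elastase, had a log2 fold change of 0.47 (SE 0.64). Mmp15 had 5.50 CPM in DMSO_5 and at most 2.15 CPM elsewhere, a log2 fold change of -0.79 (SE 0.40), and -0.01 with Alb as a covariate.

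**Figure D4:**
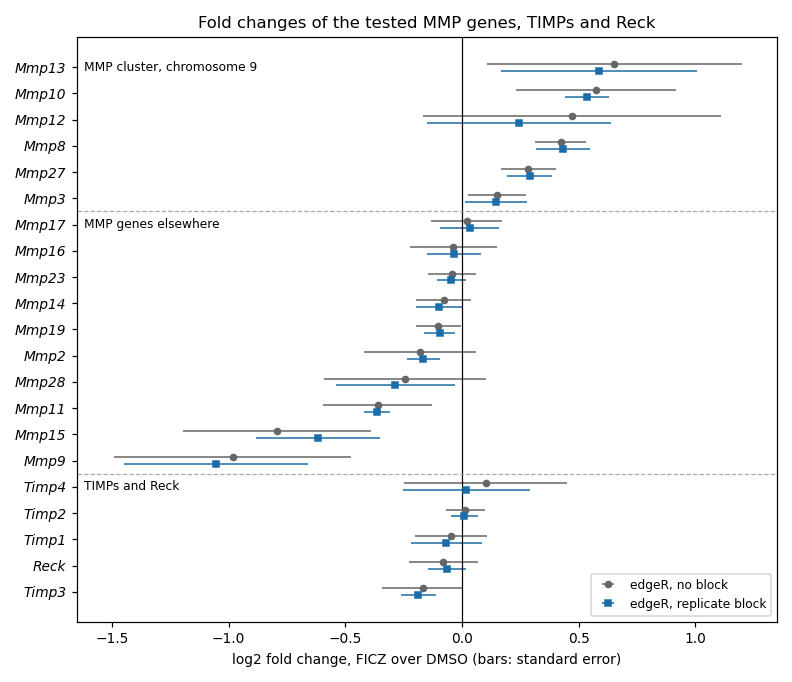
Log2 fold change, FICZ over DMSO, with its standard error, for the 21 tested MMP genes, TIMPs and Reck, from edgeR without a block (grey circles) and with the replicate block (blue squares). Mmp10 and Mmp11 keep their values and lose most of their error with the block.

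Of the other inhibitors, Timp3, which binds the matrix, averaged 149 ± 26.4 CPM with DMSO and 133 ± 33.3 CPM with FICZ, with a log2 fold change of -0.17 (SE 0.17), and with the block -0.19 (SE 0.08, unadjusted p = 0.0407, adjusted p = 0.929 by edgeR). Reck, a membrane-anchored inhibitor of several MMPs, had a log2 fold change of -0.08 (SE 0.15).

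By position the MMP genes fell on different sides of 0, a grouping made after the values were seen and given as a description with no test. The cluster on chromosome 9 (chr9:7272514-7699585 of GRCm38, a stretch of 427 kb) holds 10 MMP genes, of which 6 were tested: Mmp13, Mmp12, Mmp3, Mmp10, Mmp8 and Mmp27. All 6 had a log2 fold change above 0, with a median of 0.45, where 53.8% of all tested genes lay above 0. Of the 10 tested MMP genes elsewhere in the genome, 1 lay above 0 and the median was -0.14. By pair the count above 0 in the cluster was 5, 6, 6, 4 and 3 of 6 in pairs 1 to 5, so that pairs 4 and 5 contributed least. Of the 10 MMP genes in the cluster 8 hold the AP-1 letters in a RefSeq window, and Mmp8 and Mmp27 do not. Mmp12 holds them only in the window of its downstream start. Of all RefSeq windows 6.75% hold them, a share per window and not per gene.

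The neighbours of the cluster lay above 0 as well. Of the other protein-coding genes at least in part within 1000 kb on either side, 9 of 9 tested had a log2 fold change above 0. Their median was 0.08, and 53.8% of all tested genes lay above 0. Leaving out 1 library gave between 7 and 9 of these genes above 0, and pairs 4 and 5 had 6 each. Birc3, an inhibitor of apoptosis and a target of NF-kB, had between 20.1 and 25.7 CPM in DMSO and between 26.5 and 29.7 CPM in FICZ. It was the 1 gene of these 9 whose groups did not overlap, and 0.351% of all tested genes were apart and higher with FICZ. Birc3 had a log2 fold change of 0.33 (SE 0.08, unadjusted p = 0.00203, adjusted p = 0.999 by edgeR). Birc3 was chosen after its values were seen. Among the tested genes of the stretch Mmp10 alone passed the adjusted threshold, in DESeq2 with the block, and none did in edgeR without or with the block or in DESeq2 without it.

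**Figure D5:**
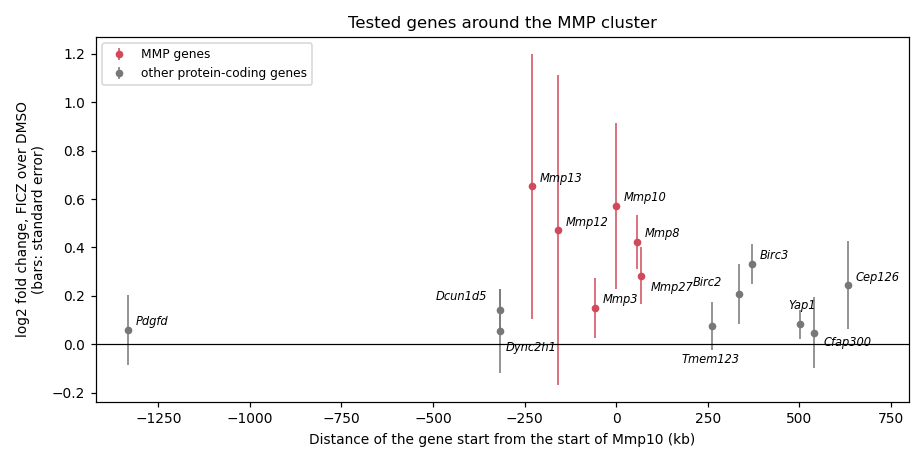
Log2 fold change with its standard error (edgeR without a block) against the distance of the gene start from the start of Mmp10 in kb, for the tested MMP genes of the chromosome 9 cluster (red) and the other tested protein-coding genes that reach within 1000 kb of it (grey). All points lie above 0, from 0.05 for Cfap300 and Dync2h1 to 0.65 for Mmp13.

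Genes that act before and after the MMPs were read from lists. Of 14 genes of proenzyme activation and docking (furin-type convertases, plasminogen activators and cell-surface partners) 0 passed the adjusted threshold in edgeR without or with the block (background 0.0211% and 0.0561%), and 1 had an unadjusted p under 0.05 without the block, near the background of 4.82%. That gene was Plg, plasminogen, made in the liver, with 167 CPM in DMSO_5 and at most 66.5 CPM elsewhere. Its log2 fold change was -1.14 (SE 0.44), and -0.08 with Alb as a covariate. Pcsk6, a convertase, had a log2 fold change of 0.12 (SE 0.08) and was higher in 5 of 5 pairs (background 4.32%). The median over the 14 genes was 0.00, and 0.01 over all tested genes. Of 14 matrix substrates 0 passed and 1 had an unadjusted p under 0.05, again near the background of 4.82%: Vtn, the vitronectin gene and also a liver product, with a log2 fold change of -1.09 (SE 0.44), and -0.03 with Alb as a covariate. Eln, elastin, had -0.24 (SE 0.23), with 4 of 5 pairs lower and pair 5 higher by 0.97. Without that 1 higher pair, DESeq2 with the block called Eln (-0.50, adjusted p = 0.0331). That fit called 76 genes in all, against 26 on all libraries. Of 13 transcription factors known to bind MMP promoters, AP-1 subunits among them, 0 passed in edgeR without or with the block (background 0.0211% and 0.0561%). An unadjusted p under 0.05 was seen in 0 of 13 in both fits (background 4.82% and 4.65%). The lowest without the block was Fosl2, with a log2 fold change of 0.16 (SE 0.08, unadjusted p = 0.0662, adjusted p = 0.999 by edgeR), followed by Jund with -0.15 (SE 0.12). The median of these 13 genes was 0.06, and -0.05 with Alb as a covariate. Of the 13 genes 10 lay above 0, where 53.8% of all tested genes did, and this count was between 4 (without DMSO_5) and 11 on leaving out 1 library, and 2 in pair 1. DESeq2 called none of the genes of these 3 lists without or with the block on all libraries.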

How the data were processed

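RNA from cultured mouse ASPCs was sequenced in bulk, with 5 libraries treated with DMSO and 5 with FICZ, grouped by the labels. The authors aligned reads with STAR 2.7.7 to mm10 and deposited raw counts per gene symbol. The counting program and strand setting are not given in the sources used here. Whether the 5 libraries of a group came from separate mice is not given either, so p-values measure the spread between these libraries. Libraries of 1 group differed by more than sampling noise in each of 20 pairs. Columns were matched by library name.

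Counts were tested with edgeR 4.0.16 in R 4.3.3 (quasi-likelihood, robust, TMM, filterByExpr, Benjamini-Hochberg over 14251 genes, threshold 0.05). DESeq2 1.42.0, the study's tool, was the alternative. Intervals and floors cover spread and counting error only. Adjusted and unadjusted p-values came from these fits, and those named exact from two-sided permutation tests of log2 CPM with a prior count of 2. The labels do not say whether libraries of the same number share an animal or culture. The replicate numbers were taken to pair the libraries, because the correlation of deviations was above 0.1 in all 5 pairs (lowest 0.15). The fits were tested on simulated data. Lengths, overlaps and coordinates came from GENCODE M21 on GRCm38, the assembly of mm10, and upstream sequences from RefSeq.

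The genes named were the 10 genes, Timp3, Reck, Mmp8, Mmp12, 4 AHR targets, the 2 genes of smallest unadjusted p in each wider list and any gene of a list past the threshold. Alb, Chchd10, Birc3, Mmp15, Mmp20, Mmp23 and Tmem198b were added to these with their values known. The genes and lists were chosen with earlier results of these data known. Fits without each pair, and with the block and Alb together, were added after seeing the data.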

Additional observations from a re-analysis of the deposited data

Results flagged for a closer look

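Of 42 groups of 5 libraries compared, over 21 genes, 2 held a library far from the other 4, where chance gives about 1 in 20 groups (2.1 of 42). For Mmp12 the library DMSO_2 was lowest, with 0.121 CPM against 0.524 to 0.882 CPM in the other DMSO libraries. On the scale of log2 CPM with a prior count of 2, not of CPM, the gap was 0.717 of the range of the group. For Mmp27 the library FICZ_4 was lowest, with 24.4 CPM against 30.1 to 32.2 CPM in the other FICZ libraries. The gap was 0.757 of the range on the same log2 scale.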

How the results depend on the processing

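Of 288 alternative values for the fold changes of the 10 genes, 265 kept their direction and side of the threshold, 8 passed the threshold (Mmp10 and Mmp11, by DESeq2 with the block, on all libraries or without 1 pair) and 15 changed sign, none of these past the threshold. Without the block edgeR called 3 genes in all, and 1 to 4 without 1 library. With the replicate block, in which libraries of the same number are pairs, edgeR called 8, DESeq2 26 against 16 without the block, and edgeR with the block and Alb 16. Leaving out 1 pair gave 1 to 8 calls by edgeR and 25 to 76 by DESeq2. Of the 10 genes, 0 were called by edgeR, 2 by DESeq2 with the block, and 0 to 2 by the latter without 1 pair. Of the wider lists 0 were called, and 2 without pair 5 by DESeq2 with the block. In the order of levels 8 of 10 genes kept their place with the longest transcript. Of the 4 AHR targets edgeR called 3 without the block and 2 with it, and DESeq2 called 4 in both fits.

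The signs that changed were those of small differences. With Alb as a covariate Mmp2 was at 0.077 and Timp1 at 0.0087, and with the block and Alb Timp1 was at 0.14. Timp1 ranged from -0.14 to 0.05 without 1 library, positive without DMSO_5 (0.01) or FICZ_5 (0.05), and was at 0.11 without pair 5 by both tools. Timp2 was at -0.0033 with library size only, -0.0075 with the stricter filter and -0.025 with Alb, from -0.031 to 0.045 without 1 library, and at -0.01 by DESeq2 and -0.02 by edgeR without pair 3. The causes were not tested. Mmp9 and Mmp13 could not be fitted under the stricter filter (at least 1 CPM in 5 libraries). Depth limits Mmp9 and Mmp13, with at most 32 counts in a library.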
